A study of Homo sapiens with 8 samples.

Results

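The nuclear pore complex and the factors that carry cargo through it were examined in long-read RNA sequencing of MOLM-13 cells, a human acute myeloid leukemia line. The set held 39 genes, chosen by name: the nucleoporins, SEC13 and SEH1L, which the pore shares with other complexes, 5 soluble transport factors and 3 genes of the Ran cycle. Every transcript that GENCODE version 44 assigns to one of these genes was taken, and the counts were summed per gene. All 39 genes had counts, among 16474 genes with a count in the series, and 36 of them passed the filter on low counts, among 7597 genes in all.

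All 8 libraries came from MOLM-13 cells that carried a lentiviral construct with a doxycycline (dox) inducible shRNA and had been treated with dox for 9 days. Besides the shRNA the construct carries 2 markers, mCherry and the dox-dependent truncated receptor ΔLNGFR. In 4 libraries the shRNA was directed against PTBP1 (genotype PTBP1 KD, here shPTBP1), and in 4 it was a scrambled sequence (genotype WT, here shSCR). A single shRNA was used on each side, so loss of PTBP1 cannot be told apart from other differences between the cells. PTBP1 (polypyrimidine tract binding protein 1) binds pyrimidine-rich RNA and is best known for repressing splice sites and exons near such stretches.

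The nuclear pore complex is the channel through which proteins and RNA pass between nucleus and cytoplasm. Its scaffold consists of outer rings, built from the Y complex, and an inner ring, while nucleoporins with phenylalanine-glycine repeats fill the channel and membrane proteins anchor it in the nuclear envelope. Transport receptors bind cargo and move through the channel, and the small GTPase RAN, loaded with GTP in the nucleus and converted to its GDP form in the cytoplasm, gives the movement its direction. Several pore genes, NUP98 and NUP214 among them, are partners of fusion genes in leukemia.

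The totals were between 1528449 and 1613342 transcript counts per library, with medians of 1580950 for shPTBP1 and 1557130 for shSCR. Levels are given as normalized CPM, which are counts per 1000000 after TMM scaling, without correction for length, so that levels can be compared between libraries but not between genes. PTBP1 was at 6.33, 9.91, 8.56 and 14.7 normalized CPM in the shPTBP1 libraries and at 39.9, 57.3, 42.7 and 50.05 in the shSCR libraries. The groups did not overlap, and the log2 fold change was -2.26 (SE 0.22, edgeR quasi-likelihood adjusted p = 7.18e-05, exact two-sided permutation p = 0.0286, the smallest possible with 4 against 4 libraries, adjusted p = 0.0476 over 5 such tests). Of the 9 markers of the myeloid lineage 6 could be tested. By edgeR 1 of them, the receptor gene CSF1R, was lower at an adjusted p under 0.05, as were 3.19% of all genes tested. An unadjusted p under 0.05 was found for 4, beside 19.2% of all genes tested. CSF1R and ITGAM had log2 fold changes of -0.97 and -0.85, and CD33, LYZ, MPO and PTPRC had 0.26, 0.33, 0.16 and 0.07. CSF1R and ITGAM had means of 7.28 and 6.75 normalized CPM in shPTBP1 and 14.4 and 12.3 in shSCR. These 2 genes passed the count filter only because of the shSCR libraries, where they were higher. The summed level of the markers was 422 to 560 normalized CPM in shPTBP1 and 398 to 429 in shSCR. LYZ alone had means of 345 and 274. The T cell markers CD3D, CD3E and CD2 had no count in any library. The B cell markers summed to at most 1.33, the erythroid markers to at most 0.667 and the epithelial markers to at most 7.99 normalized CPM. None of 9 tested proliferation genes passed the edgeR test, DESeq2 or limma-voom at an adjusted p under 0.05, while 4 had an unadjusted p under 0.05 by edgeR, as had 19.2% of all genes tested. Their median log2 fold change was 0.20 and their summed level was 1666 to 1816 normalized CPM in shPTBP1 and 1633 to 1666 in shSCR, and any part of this in the pore gene values was not tested. In bulk RNA, fewer cells of a type and less RNA per cell cannot be told apart.

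The change that stood out among the pore genes was in the splicing of SEH1L. SEH1L encodes a WD-repeat protein of the Y complex that is also part of GATOR2, which acts upstream of mTORC1 in the sensing of amino acids. The gene lies on the plus strand of chromosome 18 (hg38, chr18:12947133-12987536), and 4 of its 10 transcripts in the table had counts. SEH1L-201 and SEH1L-202 share the splice sites of their first 8 exons and differ in where the last exon begins. The last exon of SEH1L-201 spans chr18:12985240-12987536 (proximal acceptor), and that of SEH1L-202 spans chr18:12986862-12987531 (distal acceptor, 1622 bases downstream). The distal acceptor lies within the sequence that is 3′ untranslated region in SEH1L-201. The shared exons hold 1070 coding bases, or 356 whole codons. SEH1L-201 adds 10 coding bases in its last exon and SEH1L-202 adds 193, which gives annotated proteins of 360 and 421 residues with different C-termini. The other transcripts with counts, SEH1L-208 and SEH1L-210, carry the proximal acceptor.

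**Figure D1:**
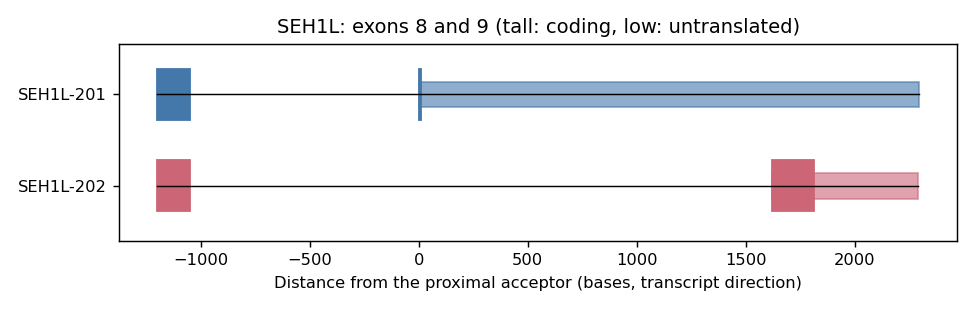
Exons 8 and 9 of SEH1L-201 and SEH1L-202 drawn to scale, with the distance in bases from the proximal acceptor on the x axis and one transcript per line. Tall boxes are coding and low boxes are untranslated sequence, and the distal acceptor of SEH1L-202 sits 1622 bases into the last exon of SEH1L-201.

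The intron sequences that end at the competing acceptors are shown because the switch takes place between them. Capitals mark TCTT, a short pyrimidine motif of the kind PTBP1 binds, searched on the transcript strand, with overlaps counted. The proximal sequence covers the last 100 intron bases (hg38, chr18:12985140-12985239, plus strand), and the distal sequence covers the last 30 (chr18:12986832-12986861, plus strand). Both end in AG.
SEH1L proximal acceptor: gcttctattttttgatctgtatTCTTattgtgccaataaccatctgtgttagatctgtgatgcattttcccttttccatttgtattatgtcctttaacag
SEH1L distal acceptor: ggtgttttgttcctgTCTTcattgtttcag

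Over the last 100 bases, the window before the distal acceptor was 80% pyrimidine and held 4 TCTT matches, and the window before the proximal acceptor was 67% pyrimidine and held 1. The last 30 bases before the distal acceptor, printed above, were 70% pyrimidine and held 1 match. The rest of that window was richer in pyrimidine, and the other matches began there. The distal window is intron in SEH1L-202 but lies within the last exon of SEH1L-201. The background was 99892 such windows before the internal exons of transcripts with a mean of at least 1 count per library. Windows before last exons, as both SEH1L windows are, were left out of it. The median was 55% pyrimidine, and 63.5% of the windows held at least 1 TCTT. No more pyrimidine than before the distal acceptor was found in 99.9% of the windows, and no more than before the proximal acceptor in 95.3%. At least 4 TCTT matches were found in 2.77%. The motif CTCTCT occurred in 7.93% of all windows and in neither SEH1L window. These matches are a description of letters and not of binding.

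SEH1L-202 had 91, 72, 77 and 74 counts in the shPTBP1 libraries and 0, 0, 10 and 0 in the shSCR libraries. It was close to absent in shSCR, where all counts came from replicate 3, and present at a similar level in every shPTBP1 library. As a share of all SEH1L counts it made up 35.1, 32.3, 32.1 and 32.2% after shPTBP1 (32.9% ± 1.48, SD, n = 4). The exact 95% binomial intervals of these shares lay between 26.2 and 41.3%, which like all intervals and limits here cover counting error only. In shSCR the share was 4.61% in replicate 3 (interval 2.23 to 8.31%) and 0 in the others, and 0 of 618 counts in these 3 libraries allows a share of up to 0.485%. The mean change was 31.8 percentage points (diffSpliceDGE adjusted p = 4.42e-05, exact two-sided permutation p = 0.0286, the smallest possible, adjusted p = 0.0476 over 5 tests). SEH1L-202 passed the count filter only because of the shPTBP1 libraries, the group where it was high.

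SEH1L-201 moved the other way. It had 153, 140, 144 and 142 counts in shPTBP1 and 175, 184, 200 and 220 in shSCR, with no overlap between the groups. Its share was 59.1, 62.8, 60 and 61.7% in shPTBP1 and 91.1, 95.3, 92.2 and 94.4% in shSCR. The mean share was 60.9% ± 1.67 against 93.3% ± 1.94 (SD, n = 4 each), which is a change of -32.4 percentage points, the largest of any isoform tested in these genes. SEH1L-201 therefore remained the main transcript of the gene in both groups. The exact two-sided permutation test gave p = 0.0286, the smallest possible (adjusted p = 0.0476 over 5 tests), while diffSpliceDGE, which sets each isoform against the gene as a whole, gave an adjusted p of 0.234. That value was 0.00137 without shSCR replicate 3, the library with the 10 counts of SEH1L-202, and 2.18e-06 with limma diffSplice. The switch was known from earlier results of these data when SEH1L was chosen, so these values describe its size and are not independent support for it. The 5 permutation tests included the shares of both SEH1L-201 and SEH1L-202, which describe the same switch. The adjusted p of 0.0476, also for PTBP1, depends on both being counted.

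The minor transcripts SEH1L-208 and SEH1L-210 overlapped between the groups. SEH1L-208 had 3, 4, 1 and 6 counts in shPTBP1 and 6, 0, 0 and 4 in shSCR, and SEH1L-210 had 12, 7, 18 and 8 against 11, 9, 7 and 9. Summed over the 3 transcripts with the proximal acceptor, the level was 106, 99.8, 107.3 and 99.9 normalized CPM in shPTBP1 and 118, 123, 138 and 150 in shSCR. The highest shPTBP1 library was below the lowest shSCR library (103 ± 4.05 against 132 ± 14.4, SD, n = 4 each). SEH1L-202 itself was at 50.8 ± 4.76 normalized CPM in shPTBP1 and 1.67 ± 3.33 in shSCR. The whole gene was at 164, 147, 158 and 147 normalized CPM in shPTBP1 and at 118, 123, 145 and 150 in shSCR. The groups overlapped, and the gene did not pass the test (log2 fold change 0.21, SE 0.09, edgeR adjusted p = 0.232).

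**Figure D2:**
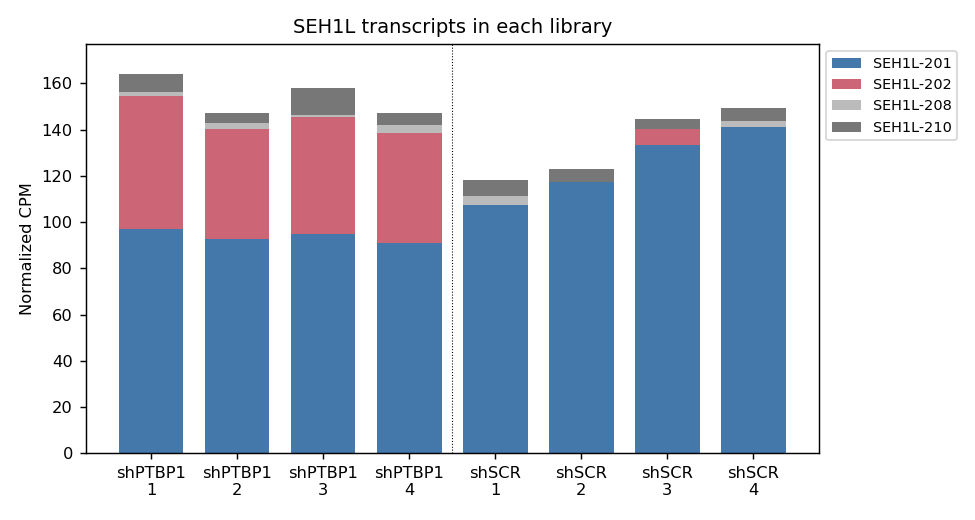
Normalized CPM (y axis) of the 4 SEH1L transcripts with counts, stacked for each library (x axis). SEH1L-202 makes up 32.1 to 35.1% of the bar in the 4 shPTBP1 libraries and is seen in shSCR replicate 3 alone among the shSCR libraries.

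Isoform usage was then compared across the other members. A gene can be tested when at least a pair of its transcripts passes the filter, which held for 38 isoforms in 16 member genes, out of 5464 isoforms tested in all. SEH1L-202 was the 1 member isoform with a mean share that changed by at least 10 percentage points and an adjusted p under 0.05, where 1.12% of all isoforms tested met both limits. Without the limit on size, 2 member isoforms had an adjusted p under 0.05, SEH1L-202 and SEC13-201, against 1.78% of all isoforms tested. Both passed the count filter only because of the shPTBP1 libraries, where they were higher. Their entry to the test, and so these numbers of calls and the rank given next, depended on the groups compared. With no filter on low counts, their diffSpliceDGE adjusted p-values were 2.43e-07 and 0.0446. By the size of its change SEH1L-202 was number 10 of the 61 isoforms called in the series. A change under 5 points was seen for 28 of the 38 member isoforms. Shares did not overlap between the groups for 4 of them, against 10.7% of all isoforms tested, and these were SEH1L-201, SEH1L-202, SEC13-201 and SEC13-202. The main transcript was the same in both groups for 33 of the 36 genes that passed the gene filter. It held over 90% of the gene's counts in both groups for 15 of them, among them NDC1, NUP188, NUP43 and NUP210.

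SEC13, a WD-repeat protein of the Y complex and of the COPII coat that buds vesicles from the endoplasmic reticulum, showed a smaller shift. SEC13-201 had 20, 21, 18 and 16 counts in shPTBP1 and 8, 11, 3 and 4 in shSCR. Its share was 6.32% ± 0.762 against 2.05% ± 1.09 (SD, n = 4 each), without overlap between the groups. The change of 4.26 points had an adjusted p of 0.00184 by diffSpliceDGE but was below the minimum of 10 points. SEC13-201 contains an exon of 34 bases (hg38, chr3:10319139-10319172, minus strand) that SEC13-202, the main transcript, lacks. SEC13-202 had a share of 88.0% ± 1.6 in shPTBP1 and 93.7% ± 1.43 in shSCR with no overlap, but did not pass the test (adjusted p = 1.00, and 0.0272 with limma diffSplice). The gene as a whole was at 193 ± 9.21 normalized CPM in shPTBP1 and 198 ± 16.6 in shSCR (log2 fold change -0.04, SE 0.08, adjusted p = 0.829).

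NUP62 encodes a central channel protein with phenylalanine-glycine repeats, and its 2 tested isoforms had the largest share changes after SEH1L together with NUP93-210. NUP62-201 had 19, 20, 12 and 16 counts in shPTBP1 and 25, 46, 25 and 16 in shSCR. The share was 33.5% ± 7.29 against 51.8% ± 11.4 (SD, n = 4 each), with overlap and an adjusted p of 0.889. NUP62-202 had 23, 29, 24 and 12 counts against 16, 16, 15 and 18, and its share was 42.6% ± 9.01 against 32.4% ± 8.08 (adjusted p = 0.716). The gene had 38 to 71 counts per library, and neither isoform passed the test over all isoforms. NUP93, a scaffold protein of the inner ring, had a share of 54.7% ± 6.25 for NUP93-210 in shPTBP1 and 65.7% ± 2.61 in shSCR (adjusted p = 1.00). GLE1, which activates the helicase DDX19 at the end of mRNA export, was noted after its values were seen. The isoform GLE1-208 includes an exon of 27 bases (hg38, chr9:128532665-128532691, plus strand) that GLE1-201 lacks, and had 4, 7, 7 and 9 counts in shPTBP1 and 1, 1, 3 and 0 in shSCR. It did not pass the count filter and was not tested.

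Transcripts that GENCODE marks as targets of nonsense-mediated decay made up 2.65, 2.42, 2.39 and 1.81% of all member counts in shPTBP1 and 2.37, 3.01, 1.35 and 2.24% in shSCR. The groups overlapped (exact two-sided permutation p = 0.829, adjusted p = 0.829 over 5 tests). Much of the spread came from NUP107, without which the share was 1.67, 1.59, 1.36 and 1.61% in shPTBP1 and 1.62, 1.48, 1.34 and 1.63% in shSCR. Retained-intron transcripts were 1.44% ± 0.216 in shPTBP1 and 1.47% ± 0.242 in shSCR (SD, n = 4 each, exact two-sided permutation p = 0.829). In all genes together the decay share was 3.19% ± 0.0499 and 3.25% ± 0.0217.

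The question at the gene level was whether the pore components change in amount when PTBP1 is depleted. Of the 36 members tested, 0 were lower and 1 was higher by edgeR at an adjusted p under 0.05, where 3.19% and 2.36% of all 7597 genes tested were lower and higher. At an unadjusted p under 0.05, 1 member was lower and 6 were higher, where 10.1% and 9.1% of all genes tested were lower and higher. DESeq2 also called 0 lower and 1 higher, and limma-voom called 0 in either direction. DESeq2 and limma-voom called no member outside the transmembrane group. DESeq2 gave an adjusted p to 4945 of the 7597 genes only, and to neither NUP88 nor RAE1, so it could not call these members. The median log2 fold change of the members was 0.04, beside 0.00 for all genes tested, and 17 of 36 changed by less than 0.1 in size. The standard errors of the log2 fold changes were between 0.07 (RAN) and 0.36 (NUP107). Groups did not overlap for 3 members, NDC1, NUP155 and AAAS, against 12.7% of all genes tested. NUP160, AHCTF1 and POM121, with 60, 18 and 14 counts over all libraries, did not pass the filter.

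**Figure D3:**
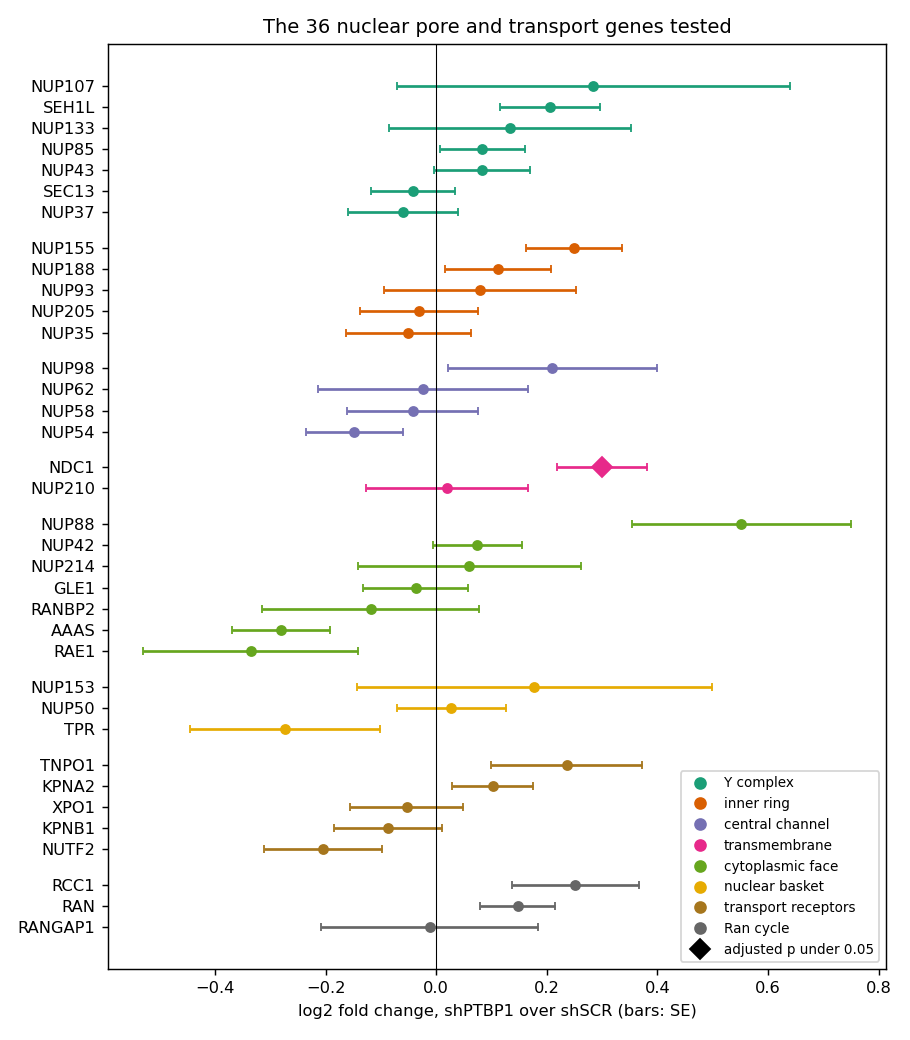
The log2 fold change of shPTBP1 over shSCR (x axis, points, with bars for the SE) of the 36 members tested, grouped and coloured by their place in the pore or in transport. NDC1 alone, drawn as a diamond, has an adjusted p under 0.05, and NUP88 lies farthest from 0.

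NDC1, a transmembrane nucleoporin that anchors the pore in the nuclear envelope, was the member that rose. It was at 452, 389, 382 and 423 normalized CPM in shPTBP1 and at 363, 294, 358 and 321 in shSCR. Every shPTBP1 library was above every shSCR library. The log2 fold change was 0.30 (SE 0.08, a fold of 1.23, edgeR adjusted p = 0.048). The call depended on the setting, with adjusted p-values from 0.0161 (DESeq2) to 0.125 over the alternatives. It was lost with limma-voom, with limma-trend and when any library other than shSCR replicate 1 was left out. Of the other membrane proteins, NUP210 was at 93.8 ± 10.03 normalized CPM in shPTBP1 and 92.5 ± 22.2 in shSCR (log2 fold change 0.02, SE 0.15). POM121 had 6 counts against 8, and its reads are hard to separate from those of its near-identical copy POM121C.

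None of the 7 tested genes of the Y complex, the branched scaffold of the outer rings, passed the edgeR test at an adjusted p under 0.05, and 1, SEH1L, had an unadjusted p under 0.05. Their log2 fold changes were between -0.06 and 0.28, with a median of 0.08. NUP85, which binds SEH1L directly within the Y complex, was at 185 ± 13.9 normalized CPM in shPTBP1 and 174 ± 10.01 in shSCR (log2 fold change 0.08, SE 0.08, adjusted p = 0.614). NUP43, NUP37 and NUP133 had log2 fold changes of 0.08, -0.06 and 0.13. NUP160 had 28 counts in shPTBP1 and 32 in shSCR, and AHCTF1, the protein that brings the Y complex to chromatin after mitosis, had 5 and 13.

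NUP107, a core Y-complex subunit, had the largest standard error of the fold change among the members tested. It was at 98.7, 91.2, 95.5 and 39.7 normalized CPM in shPTBP1 and at 73.1, 111, 20.01 and 61.6 in shSCR. Low and high libraries occurred in both groups (log2 fold change 0.28, SE 0.36, adjusted p = 0.729), and without shSCR replicate 3 the log2 fold change was -0.01. The spread came from a pair of its transcripts. NUP107-205, annotated as a target of nonsense-mediated decay, had 68, 53, 66 and 14 counts in shPTBP1 and 51, 94, 1 and 38 in shSCR. NUP107-211, a protein-coding transcript, had 46, 55, 50 and 24 against 38, 56, 6 and 41. NUP107-201, the longest of the 3, had 32, 26, 23 and 22 against 24, 21, 22 and 15 and varied less. What distinguishes the libraries with few NUP107-205 counts was not tested.

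**Figure D4:**
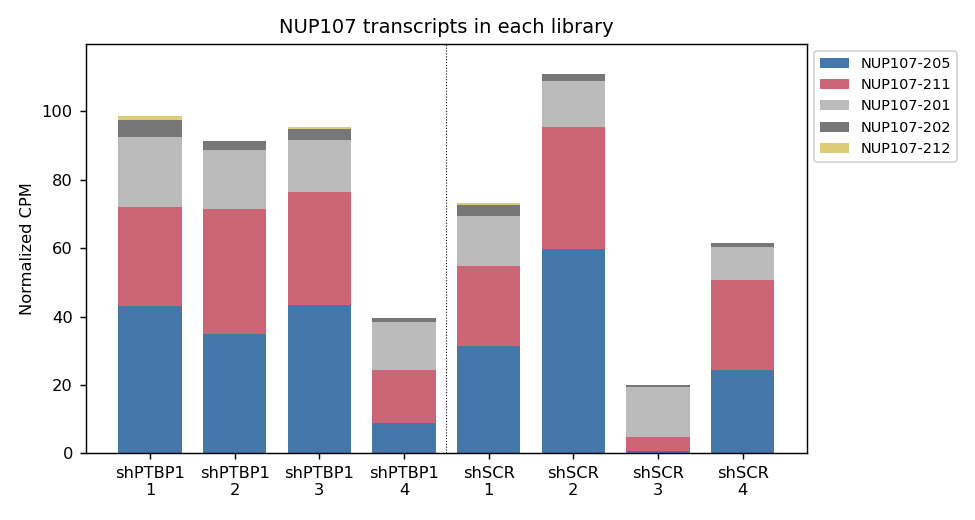
Normalized CPM (y axis) of the NUP107 transcripts with counts, stacked for each library (x axis). The bar of shSCR replicate 3 reaches 20.01 and that of shSCR replicate 2 reaches 111, while NUP107-201 had 15 to 32 counts in all 8 libraries.

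The 5 inner-ring genes, all tested, had log2 fold changes from -0.05 to 0.25 and none passed the edgeR test, with 1 unadjusted p under 0.05. NUP155, a scaffold protein that links the inner ring to the membrane, was at 137, 130, 138 and 164 normalized CPM in shPTBP1 and at 117, 127, 118 and 116 in shSCR. The groups did not overlap, but the difference failed the correction (log2 fold change 0.25, SE 0.09, adjusted p = 0.118). NUP188, NUP93, NUP205 and NUP35 had log2 fold changes of 0.11, 0.08, -0.03 and -0.05.

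The 4 central channel genes had log2 fold changes from -0.15 (NUP54) to 0.21 (NUP98), and none passed edgeR's test, with 0 at an unadjusted p under 0.05. NUP98, whose transcript also encodes the Y-complex protein NUP96, was at 28.5, 25.8, 22.4 and 21.8 normalized CPM in shPTBP1 and at 16.6, 26.7, 18.7 and 23.1 in shSCR, with overlap (SE 0.19, adjusted p = 0.605). NUP62, whose exons overlap those of IL4I1 on the same strand, had a log2 fold change of -0.02 (SE 0.19).

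The 7 genes of the cytoplasmic face had the widest range of fold changes, from -0.34 to 0.55, and none passed the edgeR test, with 2 unadjusted p-values under 0.05 (NUP88 and AAAS). NUP88, which holds NUP214 at the cytoplasmic face, was at 19.6, 19.2, 15.1 and 21.1 normalized CPM in shPTBP1 and at 11.7, 13.4, 10.7 and 15.4 in shSCR. It had the largest log2 fold change of all members, 0.55 (SE 0.20, adjusted p = 0.135), and the groups overlapped by a single pair of libraries. Its exons overlap those of RPAIN and RABEP1 on the opposite strand. AAAS, or aladin, which NDC1 holds at the pore and which is mutated in triple A syndrome, was at 128, 108, 109 and 123 normalized CPM in shPTBP1 and at 131, 139, 159 and 141 in shSCR. The groups did not overlap, and the difference failed the correction (log2 fold change -0.28, SE 0.09, adjusted p = 0.088, with 0.0502 to 0.233 over the alternatives).

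RAE1, an mRNA export factor that binds NUP98, was at 13.9, 11.2, 11.8 and 11.5 normalized CPM in shPTBP1 and at 15.4, 15.9, 13.3 and 16.7 in shSCR (log2 fold change -0.34, SE 0.19, adjusted p = 0.412). One shPTBP1 library lay within the shSCR range. NUP42, NUP214, GLE1 and RANBP2, the last of which is the large cytoplasmic filament protein with SUMO ligase activity, had log2 fold changes of 0.07, 0.06, -0.04 and -0.12. RANBP2 has near-identical copies, the RGPD genes, and its counts are uncertain for that reason.

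In the nuclear basket, TPR, which forms its filaments, was at 36.1, 35.0, 38.8 and 37.8 normalized CPM in shPTBP1 and at 63.3, 38.2, 40.0 and 36.6 in shSCR. The difference of the means rested on shSCR replicate 1. The log2 fold change was -0.27 (SE 0.17, adjusted p = 0.423) with that library and -0.05 without it. NUP153 and NUP50, which help import complexes come apart at the basket, had log2 fold changes of 0.18 and 0.03.

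**Figure D5:**
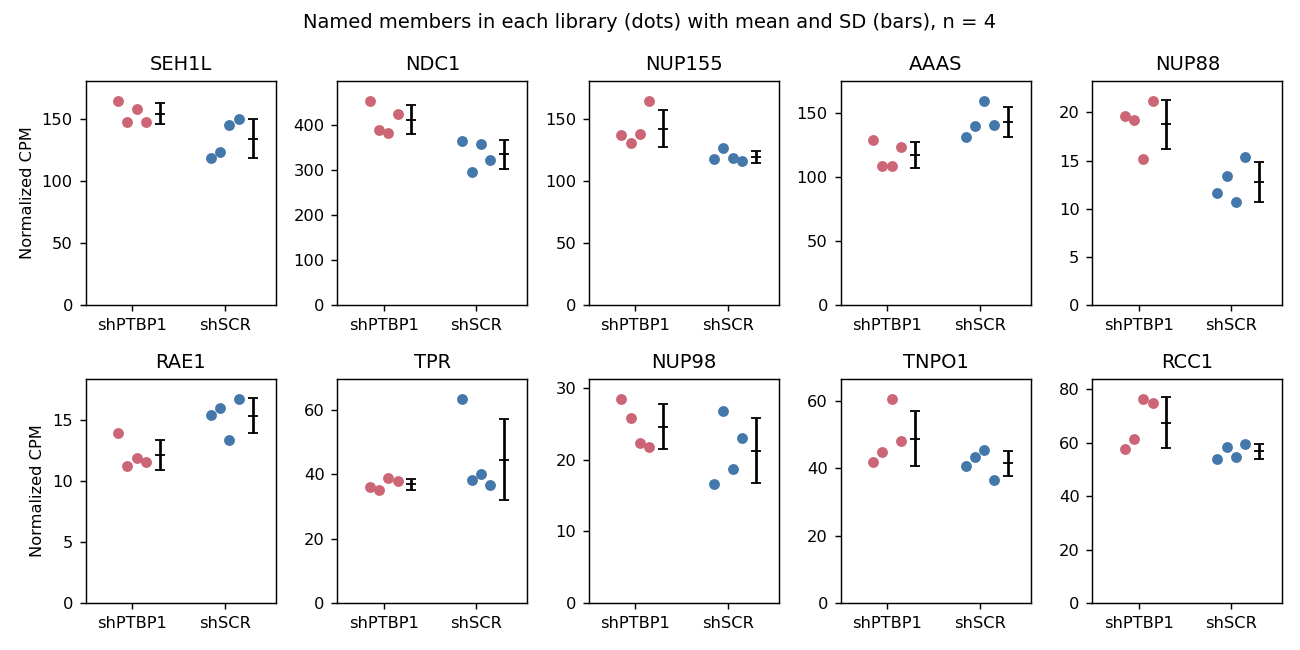
Normalized CPM (y axis, each panel from 0 with its own scale) of 10 members in the 4 shPTBP1 and 4 shSCR libraries (x axis), with dots for libraries and bars for mean and SD. NDC1 and NUP155 lie higher and AAAS lower in all shPTBP1 libraries than in any shSCR library, and TPR has 1 high shSCR library at 63.3.

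None of the 5 soluble transport factors passed the edgeR test or had an unadjusted p under 0.05, with log2 fold changes from -0.20 to 0.24. TNPO1, the import receptor for many RNA-binding proteins, was at 41.8, 44.9, 60.6 and 48.0 normalized CPM in shPTBP1 and at 40.6, 43.3, 45.3 and 36.6 in shSCR (log2 fold change 0.24, SE 0.14, adjusted p = 0.379), with overlap. XPO1, the main exporter of proteins, KPNB1, the import receptor importin beta, and its adaptor KPNA2 had log2 fold changes of -0.05, -0.09 and 0.10. NUTF2, which carries RAN-GDP back into the nucleus, had one of -0.20 (SE 0.11, adjusted p = 0.319). The transcript XPO1-205, annotated as a target of decay, made up 40.1% ± 3.24 of XPO1 counts in shPTBP1 and 36.4% ± 3.04 in shSCR (adjusted p = 1.00).

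None of the 3 Ran cycle genes passed the edgeR test, and RCC1 and RAN had an unadjusted p under 0.05. RCC1, the chromatin-bound exchange factor that loads RAN with GTP, was at 57.6, 61.4, 76.4 and 74.9 normalized CPM in shPTBP1 and at 54.1, 58.6, 54.7 and 59.7 in shSCR. The groups overlapped (log2 fold change 0.25, SE 0.11, adjusted p = 0.253), and RCC1 shares exons with SNHG3 on the same strand. RAN was at 842, 886, 862 and 865 normalized CPM in shPTBP1 and at 740, 708, 880 and 792 in shSCR (log2 fold change 0.15, SE 0.07, adjusted p = 0.254). RANGAP1, which stimulates GTP hydrolysis by RAN, was at 15.2 ± 1.67 normalized CPM in shPTBP1 and 15.3 ± 2.58 in shSCR. KPNA2, RAN and NUTF2 have processed pseudogenes, to which some of their reads could have been assigned.

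Genes that work with the pore but are not part of the set were taken from lists written from general knowledge. Of 24 other transport receptors and Ran regulators 21 were tested, of which 1 was lower and 2 were higher (3.19% and 2.36% of all genes tested), and 6 had an unadjusted p under 0.05 (19.2% of all genes tested). Their median log2 fold change was -0.04. RANBP1, which binds RAN-GTP in the cytoplasm and assists its hydrolysis, was at 43.7, 57.5, 57.3 and 80.03 normalized CPM in shPTBP1 and at 93.4, 138, 103 and 121 in shSCR. The groups did not overlap, and RANBP1 fell by 0.93 on the log2 scale (SE 0.16, edgeR adjusted p = 0.00595).

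The import receptor IPO7, which carries ribosomal proteins and histone H1 among other cargo, was at 129, 123, 144 and 120 normalized CPM in shPTBP1 and at 95.9, 72.0, 88.0 and 95.6 in shSCR (log2 fold change 0.55, SE 0.10, adjusted p = 0.00833). CSE1L, the exporter that returns importin alpha proteins such as KPNA2 to the cytoplasm, was at 70.2, 74.0, 84.3 and 83.9 normalized CPM in shPTBP1 and at 52.2, 54.8, 54.0 and 57.7 in shSCR (log2 fold change 0.51, SE 0.10, adjusted p = 0.0109). Both rose without overlap between the groups, and the calls of all 3 genes held in each of 15 alternatives.

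None of 15 tested mRNA export genes (of 16), 10 tested partners of SEH1L and SEC13 outside the pore (of 12) and 7 tested genes of the SUMO pathway (of 8) passed the test by edgeR, DESeq2 or limma-voom. Because DESeq2 gave an adjusted p to 4945 of 7597 genes only, those with few counts may have had none. At an unadjusted p under 0.05 by edgeR the numbers were 6, 2 and 1, beside 19.2% of all genes tested. Their median log2 fold changes were -0.08, -0.09 and -0.07. Among the partners, the GATOR2 subunits MIOS and WDR24 were at 7.10 and 5.50 normalized CPM in shPTBP1 and at 9.71 and 9.41 in shSCR (adjusted p = 0.511 and 0.173).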

How the data were processed

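RNA from 4 shPTBP1 and 4 shSCR libraries of MOLM-13 cells after 9 days of dox was examined. The authors sequenced PCR-amplified nanopore cDNA, aligned the reads to hg38 with minimap2, kept those with a mapping quality above 50, and deposited whole-number counts per transcript from StringTie, without normalization. Versions of these tools and the annotation behind the counts are not given in the sources used here. The second table deposited by the authors, named TPM, holds CPM (each count per 1000000 of its library, equal within 1e-06) and was used in 1 alternative. The labels call the replicates biological. How they were separated is not given for this experiment in the sources used here, so p-values measure the spread between these libraries. Groups and replicate numbers came from the sample labels.

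Transcripts were assigned to genes by identifier without version in GENCODE version 44, which held 252562 of 254070 transcripts, and the 1508 others (0.0876 to 0.115% of counts) were left out. Gene sums were tested with edgeR 4.0.16 (TMM, filterByExpr with a minimum count of 10, quasi-likelihood, group only), and isoforms with diffSpliceDGE at a change of the mean share of at least 0.1. Calls were made at a Benjamini-Hochberg adjusted p under 0.05 over all features. Single values were compared by exact permutation. IsoformSwitchAnalyzeR, which the authors used for isoforms, was not used here. The tests were tried on simulated counts first. Alternatives were DESeq2 1.42.0, its size factors, limma 3.58.1 (voom, trend with a pseudocount of 1, diffSplice), other filters and minimum changes, the replicate block and leaving out each library.

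The members and lists were chosen with earlier results of these data known. Named are SEH1L, members called or without overlap, the 10 largest log2 fold changes, all SEH1L transcripts, called isoforms and the 5 largest share changes. SEC13-201, GLE1-208, the NUP107 transcripts and XPO1-205 were added after their values were seen. Coordinates and sequences are from hg38. Computations used R 4.3.3 and Python with numpy, pandas, scipy and matplotlib.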

Additional observations from a re-analysis of the deposited data

Results flagged for a closer look

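Within the groups of 4 libraries, 84 sets of values of the members were searched for a library far from the other 3 (Dixon's test at the 95% level), and 6 were found where chance gives about 4.2. NUP107 was at 39.7 normalized CPM in shPTBP1 replicate 4 against 91.2 to 98.7 in the others. TPR was at 63.3 in shSCR replicate 1 against 36.6 to 40.0. NUP214, a fusion partner in leukemia on the cytoplasmic face, was at 22.3 in shSCR replicate 2 against 14.004 to 14.8. KPNB1 was at 67.8 in shPTBP1 replicate 3 against 58.8 to 60.2. The share of SEH1L-202 was 35.1% in shPTBP1 replicate 1 against 32.1 to 32.3%, within the counting interval of each. Its share was 4.61% in shSCR replicate 3 and 0 in the other shSCR libraries. The causes were not tested.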

How the results depend on the processing

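The fall of PTBP1, the share change of SEH1L-202, the 0 members called lower, and the calls of RANBP1, IPO7 and CSE1L kept their direction and call in every alternative run that tested them (PTBP1 was below the filter of a mean of 50 counts). The number of members called higher (1, NDC1) was 0 with limma-voom and 0 with limma-trend, and 0 to 1 when single libraries were left out. The number of member isoforms called (1) was 1 to 2 without single libraries and 2 with limma diffSplice, which counts SEH1L-201 too. The change of SEH1L-201, -32.4 points with an adjusted p of 0.234, was also past the threshold with limma diffSplice (-32.4 points, 2.18e-06). Without single libraries it was -33.1 to -31.7 points, past the threshold without shSCR replicate 3 alone (0.00137). The log2 fold change of NUP107 was between -0.011 and 0.64 without single libraries, and changed sign without shSCR replicate 3. The causes were not tested.

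Libraries of the same replicate number did not deviate together (correlations 0.0103, -0.00569, 0.00798 and -0.0284 across genes), so the numbers were not treated as pairing. With the replicate block, the log2 fold change of PTBP1 was -2.27, members called lower were 0 and higher 1, member isoforms called were 1, and SEH1L-201 changed by -32.4 points. Over all genes the block gave 186 lower and 137 higher calls instead of 242 and 179. Leaving out 1 library gave 107 to 190 lower and 77 to 168 higher calls over all genes, limma diffSplice called 154 isoforms in place of 61, and 42 were called with no filter. Depth limits members with few counts: NUP160, AHCTF1 and POM121 could not be tested, and NUP153 had 91 counts in all.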
